A study of Mus musculus with 2 samples.

Results

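The genes described here are those that encode collagen chains. They were found by name: every probe of the array, control spots apart, whose gene name in the scanner files is Col, a type number, a and a chain number. This took 61 probes (70 spots) for 41 genes, of 39429 probes for 31870 genes on the array. Of the 41 genes, 36 had a probe bright enough to test, with 51 kept probes, among 21097 genes tested in all. Probes were not chosen by their values. Col6a3 and Col21a1 were not found under these names, and Col6a5 and Col26a1 appear in the scanner files under the names Gm7455 and Emid2. These 4 chains are not among the 41.

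Ureters were dissected from male NMRI mouse embryos at E13.5 (midgestation) and their RNA was hybridised to 2 two-colour arrays on 1 slide. Both genotypes carried a Tbx2 allele in Hprt on the X chromosome, Hprt(Tbx2/Y). The Tbx2-GOF (gain of function) embryos also carried cre at 1 Tbx18 allele, Tbx18(cre/+), and the control embryos were Tbx18(+/+), so Tbx2 is switched on where Tbx18 is or was active, which includes the mesenchyme around the ureteric epithelium, and the Tbx2-GOF embryos also lack 1 normal Tbx18 allele. Each array held 1 Tbx2-GOF and 1 control extract, with the Tbx2-GOF extract in red (AlexaFluor647) on array 1 and in green (AlexaFluor555) on array 2. Separate embryos for each array are not stated in the labels, nor is the number of ureters pooled, so the spread between the arrays may be technical, and array and dye orientation cannot be told apart. Levels below are log2 intensities after background correction and within-array loess. They are comparable for 1 probe between the extracts of 1 array, and never between probes. Arrays were not scaled to each other, so levels of 1 probe on arrays 1 and 2 also carry array differences. Statements that groups overlapped or not compare levels across arrays and are limited by this. The share of all genes without overlap was not worked out, so such statements describe the levels and are not evidence of a change. Ratios are log2 values of Tbx2-GOF over control, given as mean ± SD of the 2 arrays (n = 2), with the adjusted p of limma over all genes tested. "Higher" and "lower" describe these ratios. Extracts were whole ureters, so fewer cells of a type and less RNA per cell cannot be told apart.

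Collagens are trimers of chains wound around each other along stretches of a Gly-X-Y repeat, in which glycine is the only residue small enough to sit at the centre. Fibrillar chains form the ropes that carry tension in mesenchyme, basement membrane chains form the sheet under epithelium and around vessels and nerves, FACIT chains attach to the surface of fibrils, and cartilage builds its own fibrils from types II, IX and XI. In the ureter the mesenchyme makes most of the fibrillar matrix, and a basement membrane separates it from the epithelium. TBX2 is a T-box transcription factor that acts mainly as a repressor.

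The probes that carry the results are shown by their first 30 bases of 60, 5′ to 3′, with the mm9 position and strand of the whole probe as the scanner files give them. They identify what was measured for the chains farthest from 0. Whether a probe lies in an exon's coding part or in a UTR was not worked out, since no genome was used.
Col4a1, A_51_P124254, chr8:11199009-11199068, minus strand: ttttcgtctctggagaaactgtactatcct
Col4a2, A_51_P491350, chr8:11448840-11448899, plus strand: cagtcttcctaaaatgaggcagagtctagg
Col18a1, A_55_P2059352, chr10:76514926-76514985, minus strand: gacaatgtgtgctatgatgccatttcaaag
Col20a1, A_55_P2107731, chr2:180750502-180750561, plus strand: ttacacaacgaggctctacttcctggagac
Col24a1, A_51_P408430, chr3:145214473-145214532, plus strand: aaagtacttcaggccacctaaatccagtgg
Col6a6, A_55_P2092164, chr9:105591795-105591854, minus strand: ttctaaactcggtaaacgaagtgcctgaac

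Another 4 probes read through the repeat that defines the family. They are shown whole, with capitals for the glycine codons (GGN) that recur every 9 bases, the spacing of Gly-X-Y, at least 4 times in a row.
Col15a1, A_55_P2060386, chr4:47283786-47283845, plus strand: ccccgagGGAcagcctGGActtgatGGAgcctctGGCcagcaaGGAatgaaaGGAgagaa
Col25a1, A_55_P2107711, chr3:130270497-130270556, plus strand: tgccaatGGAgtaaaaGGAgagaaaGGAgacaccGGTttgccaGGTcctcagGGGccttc
Col16a1, A_55_P2056735, chr4:129756457-129756516, plus strand: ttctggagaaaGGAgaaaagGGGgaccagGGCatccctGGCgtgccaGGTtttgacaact
Col14a1, A_55_P2159522, chr15:55347733-55347792, plus strand: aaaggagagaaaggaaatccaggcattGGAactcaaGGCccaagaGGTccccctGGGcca
Such a run was found in 4 of the 61 collagen probes (6.56%) and in 35 of the 39368 other probes (0.0889%). The Col15a1 probe was not well above background in any extract and was not tested. The other 3 were kept, at mean log2 ratios of 0.10 for Col25a1, 0.02 for Col16a1 and 0.05 for Col14a1.

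No collagen chain passed the test in either direction. The background was 0.36% of genes called higher (76 of 21097) and 0.28% called lower (59), so a share of 0 among 36 chains lies near it. On the fit of single probes 0 of the 51 kept collagen probes passed, against 0.419% of all kept probes (111 of 26471). With no adjustment, by limma, 6 chains were higher at p under 0.05 (Col4a1, Col4a2, Col18a1, Col20a1, Col12a1 and Col2a1; 5.63% of all genes) and 3 were lower (Col24a1, Col6a6 and Col9a1; 3.71% of all genes). Past 1.5-fold on both arrays were 1 chain upward, Col4a1 (background 0.825%), and 1 downward, Col24a1 (background 0.545%). The chain nearest to a call was Col24a1: with 135 genes called, it ranked 136 by p among all genes, at an adjusted p of 0.0500001.

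**Figure D1:**
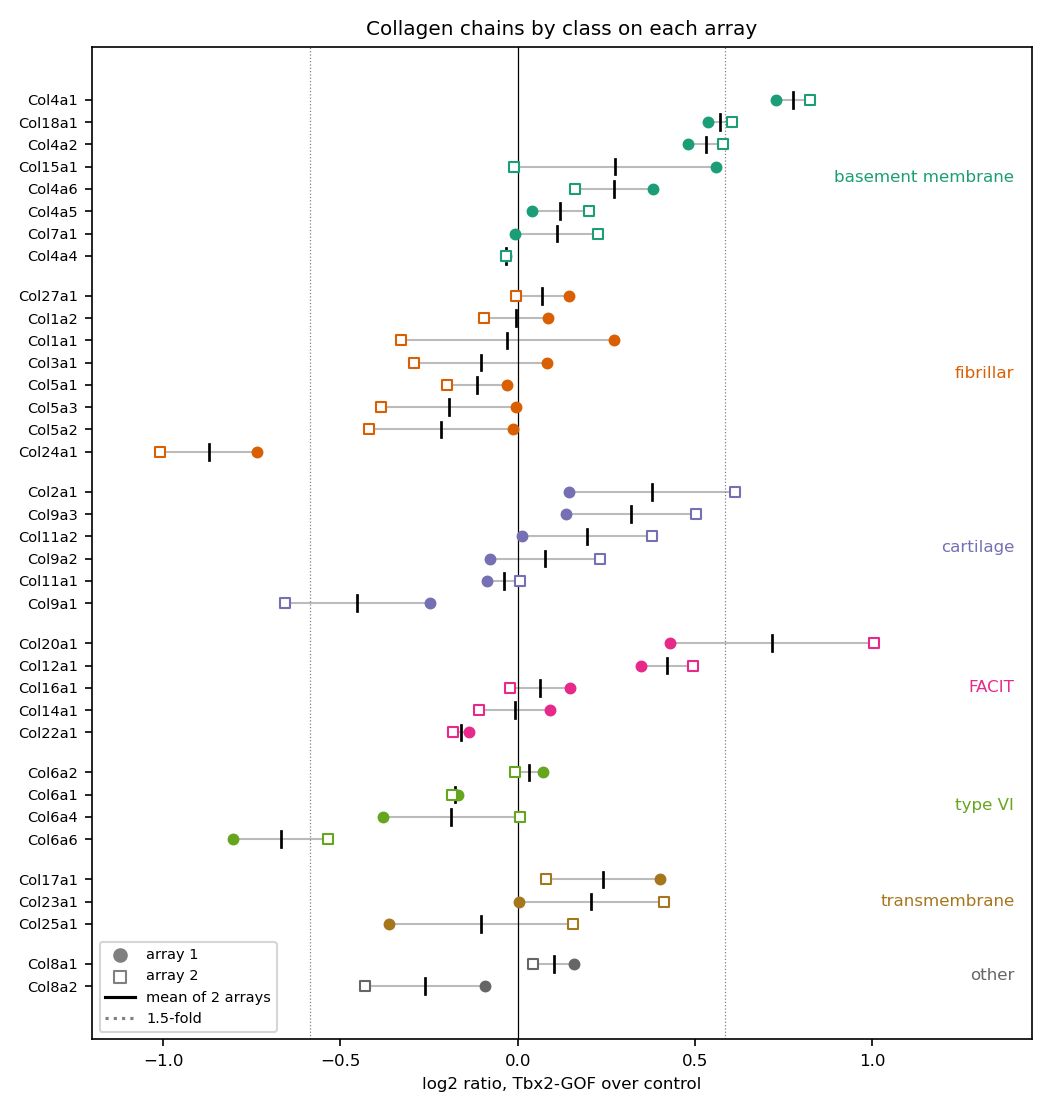
Log2 ratio of Tbx2-GOF over control (horizontal axis) for the 36 tested collagen chains, grouped and coloured by class; filled circles are array 1, open squares array 2, black ticks the mean of both, and dotted lines 1.5-fold. Of the 8 basement membrane chains 7 have a mean above 0, of the 8 fibrillar chains 1 does, and only Col4a1 and Col24a1 lie past 1.5-fold on both arrays.

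The classes differed in where their chains lay. Basement membrane chains had a median log2 ratio of 0.27 (array 1 gave 0.43 and array 2 gave 0.21), with 7 of 8 means above 0. Fibrillar chains had a median of -0.11 (0.04 and -0.31), with 1 of 8 means above 0. The median was 0.14 for the 6 tested cartilage chains (-0.03 and 0.30 on arrays 1 and 2) and 0.06 for 5 FACIT chains (0.15 and -0.02). It was -0.18 for 4 type VI chains (-0.27 and -0.10), 0.21 for 3 transmembrane chains (0.0021 and 0.16) and -0.08 for the 2 type VIII chains (0.03 and -0.19). The fibrillar, cartilage, FACIT and type VIII medians thus had opposite signs on the 2 arrays. Over all 36 chains the median was 0.05, against -5e-04 over all genes, of which 10512 of 21097 had a mean above 0. These medians are descriptions with no test. With types II and XI counted as fibrillar, that median was -0.04 (0.01 and -0.20 on arrays 1 and 2), with 3 of 11 means above 0. With type IX counted as FACIT, that median was 0.07 (0.11 and 0.105), with 5 of 8 means above 0. The FACIT medians then had the same sign on both arrays, and the fibrillar medians still had opposite signs.

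Among basement membrane chains, Col4a1 and Col4a2 encode the partners of the type IV trimer found in nearly all basement membranes. Col4a1 had normalised levels of 14.86 and 14.96 in the Tbx2-GOF extracts of arrays 1 and 2 and of 14.13 and 14.14 in the control extracts. Both Tbx2-GOF extracts lay above both controls. Its log2 ratio was 0.78 ± 0.07 (1.71-fold, 95% interval of the fit 0.47 to 1.08, adjusted p = 0.0584), from a probe spotted 10 times on each array. Col4a2 had levels of 13.85 and 13.82 in Tbx2-GOF and of 13.37 and 13.24 in control. Again the groups did not overlap, and the ratio was 0.53 ± 0.07 (1.44-fold, interval 0.23 to 0.83, adjusted p = 0.165). The difference between the ratios of Col4a1 and Col4a2 was not tested.

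These 2 genes lie head to head, and their start sites share a promoter. The RefSeq windows around their starts (GRCm38.p6) are shown for this layout. The part of the shared promoter in their ratios was not tested. Capitals mark the 78 bases, 11312777 to 11312854 on chromosome 8, that both windows hold on opposite strands. The annotated starts of the genes are 21 bases apart, at 11312826 for Col4a1 and 11312805 for Col4a2. The 2 transcripts thus overlap at their starts, and bases before the start of 1 gene lie after that of the other.
Col4a1, chr8:11312777-11313076, minus strand: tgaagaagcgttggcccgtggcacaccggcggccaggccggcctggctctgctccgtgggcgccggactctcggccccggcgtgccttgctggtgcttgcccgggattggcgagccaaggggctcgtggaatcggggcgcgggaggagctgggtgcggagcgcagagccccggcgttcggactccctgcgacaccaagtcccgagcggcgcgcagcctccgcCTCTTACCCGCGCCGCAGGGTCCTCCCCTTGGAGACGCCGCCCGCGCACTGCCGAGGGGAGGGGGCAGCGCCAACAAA
Col4a2, chr8:11312555-11312854, plus strand: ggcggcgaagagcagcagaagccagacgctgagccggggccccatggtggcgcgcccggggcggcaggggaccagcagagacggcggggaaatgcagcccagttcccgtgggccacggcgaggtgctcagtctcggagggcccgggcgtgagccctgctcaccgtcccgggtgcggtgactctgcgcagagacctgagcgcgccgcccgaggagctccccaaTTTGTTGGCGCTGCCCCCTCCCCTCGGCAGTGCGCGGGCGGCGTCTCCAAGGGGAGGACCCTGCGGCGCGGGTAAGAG
A search of both strands found a CCAAT box (letters CCAAT) at -145 from the start of Col4a1 and another at -32 from that of Col4a2. A GC box (GGGCGG) lies in the shared bases, and the Col4a2 window holds 2 more, at -192 and -48 from its start. Over the 36 RefSeq promoter windows of 300 bases found for 33 of the 41 collagen genes, the GC box was in 22 (61.1%), against 35.7% of all 32851 windows, the CCAAT box in 13 (36.1%, against 37.4%) and the TATA box (TATAAA) in 5 (13.9%, against 13.6%). The T-box motif TCACACCT was in 0 of the 36 windows and in 1.28% of all. The shorter core GTGTGA, whose reverse complement TCACAC is part of TCACACCT, was in 6 (16.7%, against 14.5%), those of Col11a2, Col19a1, Col25a1, Col6a4, Col9a1 and Col9a2. These are matches of letters in a short window and say nothing of binding.

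Col18a1, the heparan sulfate-bearing basement membrane chain whose end is released as endostatin, stood beside the type IV pair. Its levels were 14.04 and 14.12 in Tbx2-GOF and 13.51 and 13.52 in control, without overlap. The ratio was 0.57 ± 0.05 (1.49-fold, interval 0.27 to 0.87, adjusted p = 0.136), and a second probe nearby gave 0.52. Its close relative Col15a1 was uneven between the arrays. Col15a1 levels were 8.87 and 8.47 in Tbx2-GOF and 8.31 and 8.48 in control, so the groups overlapped. The ratio was 0.56 on array 1 and -0.01 on array 2 (mean 0.27 ± 0.40, adjusted p = 0.791), and a probe that overlaps the first one gave 0.48 and 0.09. Col4a5 and Col4a6, the X-linked head-to-head pair, were at 0.12 ± 0.12 (adjusted p = 0.983) and 0.27 ± 0.16 (0.655), with a second Col4a6 probe at 0.08 and -0.08 on arrays 1 and 2. Col4a4 was at -0.03 on both arrays, with a second probe at -0.20, and its partner Col4a3, whose chains build the mature glomerular and tubular membranes with Col4a5, was not well above background in any extract. Col7a1, the chain of anchoring fibrils, was at 0.11 ± 0.16.

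**Figure D2:**
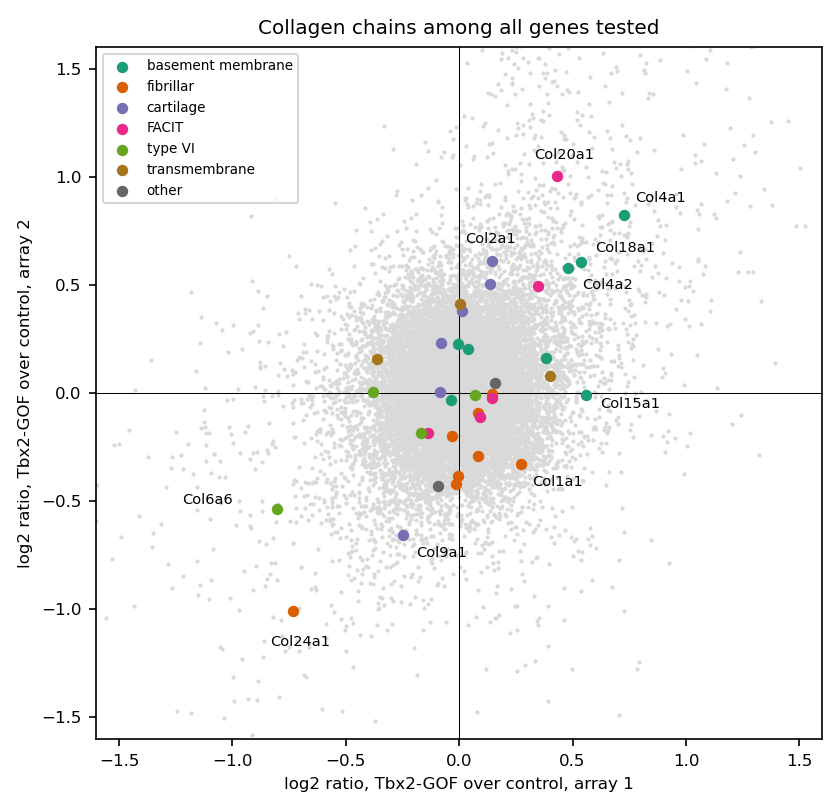
Log2 ratio of Tbx2-GOF over control on array 1 (horizontal) and array 2 (vertical) for the 36 collagen chains, coloured by class, over all 21097 genes tested in grey; 120 genes lie outside the axes. Col4a1, Col4a2, Col18a1, Col20a1 and Col12a1 lie to the upper right and Col24a1, Col6a6 and Col9a1 to the lower left, while Col1a1 and Col15a1 have opposite signs on the 2 arrays.

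Other genes of the basement membrane were measured beside these chains. Of 17 listed genes, namely the laminins, nidogens, perlecan and agrin with Sparc and Pxdn, all tested, 0 passed the test and 15 had a mean above 0. Their median was 0.18 (array 1, 0.04 and array 2, 0.24). Lama1, the laminin chain of early epithelial basement membranes, was at 0.71 ± 0.28 (adjusted p = 0.112). Lama5, its counterpart in later epithelial membranes, was at 0.57 ± 0.05 (0.136), and Agrn, agrin, at 0.29 ± 0.08 (0.590).

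Markers of other cell types with basement membranes lay on both sides of 0. All 10 endothelial markers, among them Cdh5 and Emcn, had means above 0 (range 0.02 to 0.37, median 0.27, with 0.37 and 0.14 on arrays 1 and 2), with 0 called. All 10 Schwann cell and neural markers did so too (range 0.06 to 1.57, median 0.85, 0.54 and 1.10), with 2 called, Fabp7 and Th. All 7 tested nephron markers of the kidney had means above 0 (range 0.04 to 1.85, median 0.57, 0.82 and 0.33), with 2 called. The 11 urothelial markers had a median of 0.05, with 7 means above 0. Upk3a, at -0.86, was the 1 marker called, while Upk2 and Gata3 were at 0.84 and 0.73 without passing the test (adjusted p = 0.0715 and 0.0728). The 7 ureteric mesenchyme markers had a median of -0.02. Skeletal muscle markers were all below 0, with a median of -1.22 and 4 of 8 called. The part of any of these cell types in the ratios of Col4a1, Col4a2 and Col18a1 was not tested.

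The main fibrillar chains showed no difference that the arrays could resolve. Col1a1 and Col1a2 form the type I trimer, the bulk of most connective tissue. Col1a1 levels were 17.29 and 16.98 in Tbx2-GOF and 17.02 and 17.31 in control. The groups overlapped and the sign turned between the arrays, with the red channel brighter on both. The mean ratio was -0.03 ± 0.43 with an interval of -0.43 to 0.37. Col1a2 levels were 17.26 and 17.22 against 17.18 and 17.32, for a ratio of -0.01 ± 0.13 and an interval of -0.32 to 0.31. Col3a1, the type III chain of compliant tissues, had levels of 17.59 and 17.27 against 17.51 and 17.56, for a ratio of -0.10 ± 0.26 and an interval of -0.45 to 0.24. These intervals leave room for changes of either sign. For Col1a2 and Col3a1, as for Col1a1, the sign turned between the arrays, with the red channel brighter on both. No collagen spot was saturated or flagged.

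The type V chains, which start type I fibrils and set their width, were slightly below 0 on both arrays. Col5a1 was at -0.12 ± 0.12, Col5a2 at -0.22 ± 0.29 and Col5a3 at -0.19 ± 0.27, with adjusted p-values of 0.992, 0.850 and 0.887. Col27a1, a minor fibrillar chain, was at 0.07 ± 0.11. The exception in size was Col24a1, a minor fibrillar chain known from developing bone and cornea. Its levels were 9.81 and 9.56 in Tbx2-GOF and 10.55 and 10.56 in control, so both Tbx2-GOF extracts lay below both controls. The ratio was -0.87 ± 0.19 (1.83-fold lower, interval -1.19 to -0.55), and its adjusted p lay just above the threshold, as given above. It rests on 1 probe with 1 spot per array. Markers of other connective and muscle tissue were measured beside it. Of 5 tendon markers 0 were called and 1 had a mean above 0, with a median of -0.07 (-0.12 and 0.01 on arrays 1 and 2). Mkx was at -0.78 ± 0.48 (adjusted p = 0.143), and Tnmd was at -2.29 on array 1 and 0.12 on array 2. Skeletal muscle markers were farther below 0, as given above. The part of these tissues in the Col24a1 ratio was not tested. With other settings the call turned: Col24a1 passed in 5 of 11, among them no background correction and the stricter filter on dim probes, with adjusted p-values from 0.0161 to 0.492 over all 11. Col4a1 passed in 4 of the 11, with adjusted p-values from 0.0236 to 0.501.

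Among FACIT chains, Col20a1 had the highest ratio after Col4a1. Its levels were 9.33 and 9.39 in Tbx2-GOF and 8.91 and 8.39 in control, without overlap, and the controls were farther apart than the Tbx2-GOF extracts. The ratio was 0.72 ± 0.41 (0.43 and 1.00 on arrays 1 and 2, adjusted p = 0.145). A second probe gave 0.37 and 0.66. The Schwann cell and neural markers above had medians of 0.54 and 1.10 on arrays 1 and 2. Other lists also had the larger median on array 2, such as the cartilage chains and the basement membrane partners. Endothelial and nephron markers had it on array 1. The part of Schwann and neural cells in the Col20a1 ratio was not tested. Col12a1, which coats type I fibrils in dense connective tissue, had levels of 13.18 and 13.30 in Tbx2-GOF and 12.83 and 12.80 in control. The groups did not overlap, at a ratio of 0.42 ± 0.10 (adjusted p = 0.277). Its relative Col14a1 was at -0.01 ± 0.14 with its brighter probe and 0.05 with the other, Col16a1 at 0.06 ± 0.12 and Col22a1, a chain of tissue junctions, at -0.16 ± 0.03.

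**Figure D3:**
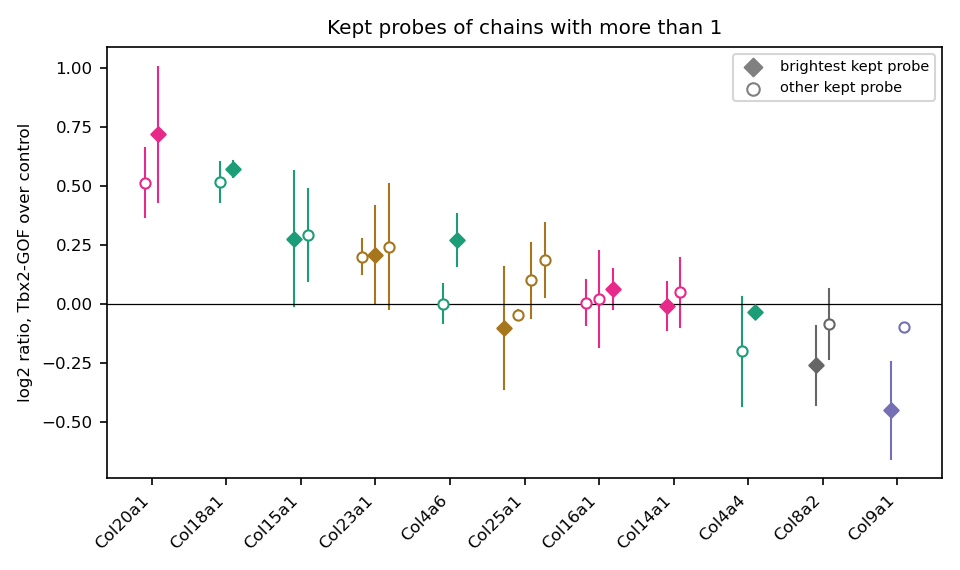
Log2 ratio of Tbx2-GOF over control (vertical axis) for each kept probe of the 11 chains with more than 1; symbols are means, filled diamonds for the brightest probe, which stands for the gene, and open circles for the others, and lines join the 2 arrays, in the class colours of the plot of chains by class. Both Col18a1 probes and both Col20a1 probes lie above 0 on both arrays, and the probes of Col14a1 and Col25a1 differ in sign.

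Probes of 1 chain mostly had means of the same sign, but their sizes could differ. The range of the means ran from 0.0148 for Col15a1, whose 2 kept probes overlap in position, to 0.35 for Col9a1. Of the 11 chains with more than 1 kept probe (26 probes), 2 had means of opposite sign, Col14a1 and Col25a1. The largest range was that of Col9a1, where the 2 probes were at -0.45 and -0.10. The second of these was near background, well above it on 1 array in Tbx2-GOF and on both in control. The 4 probes of Col25a1, a transmembrane chain of neurons and muscle, ran from -0.10 to 0.18. The 3 probes of Col23a1, also transmembrane, ran from 0.20 to 0.24, and those of Col16a1 from 0.0033 to 0.06. Probes of 1 chain share the RNA of the same extracts and are not replicates.

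Cartilage chains were mixed. Col2a1, the main chain of cartilage fibrils, had levels of 13.65 and 13.53 in Tbx2-GOF and 13.51 and 12.92 in control. Both Tbx2-GOF extracts lay above both controls, narrowly, and the ratio was 0.14 on array 1 and 0.61 on array 2 (mean 0.38 ± 0.33, adjusted p = 0.491). The type IX chains form 1 trimer on the surface of type II fibrils, and their ratios went apart. Col9a1 levels were 14.09 and 13.89 in Tbx2-GOF and 14.33 and 14.55 in control, for a ratio of -0.45 ± 0.29 (adjusted p = 0.315). Col9a2 was at 0.08 ± 0.22 and Col9a3 at 0.32 ± 0.26 (adjusted p = 0.588). The difference between these ratios was not tested. The type XI chains, Col11a1 and Col11a2, were at -0.04 ± 0.07 and 0.19 ± 0.26, and Col10a1, the chain of hypertrophic cartilage, was above background on only 1 array for each of its 2 probes.

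Cartilage itself was checked by its markers. Of 12 listed, 8 were tested, 0 were called, with a median of 0.10 (array 1 gave 0.13 and array 2 gave -0.01), with means from -0.09 to 0.24. Of the markers that were not tested, Matn1 and Snorc were not well above background in any extract. Comp and Matn3 were well above background in some extract but had no kept probe. Acan, aggrecan, was at 0.01 ± 0.06. Of the 8 tested markers, 7 had opposite signs on the 2 arrays. The part of cartilage in the Col2a1 ratio was not tested.

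Type VI chains form beaded filaments around cells. Col6a1 was at -0.18 ± 0.01 (adjusted p = 0.876) and Col6a2 at 0.03 ± 0.05. Col6a6, an alternative chain of this filament, had levels of 8.59 and 8.83 in Tbx2-GOF and 9.39 and 9.36 in control, with no overlap. Its ratio was -0.67 ± 0.19 (1.59-fold lower, interval -0.99 to -0.35, adjusted p = 0.107). Its second probe was well above background in control on 1 array and in Tbx2-GOF on none, and was left out. Col6a4 was at -0.19 ± 0.27, and Col6a5, outside the rule because the scanner files call it Gm7455, was at -0.61 ± 0.18 (adjusted p = 0.136). Skeletal muscle markers were lower in the same extracts: 0 of 8 had a mean above 0, from -1.99 to -0.25 (median -1.22, with -1.69 and -0.89 on arrays 1 and 2), with 4 called. On arrays 1 and 2, Col6a6 was at -0.80 and -0.53, and Col6a5 at -0.48 and -0.74. The part of muscle in these ratios was not tested.

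The remaining chains were not called or were too dim to test. Col17a1, the hemidesmosomal chain of epithelia, was at 0.24 ± 0.23, Col23a1 at 0.21 ± 0.29 and Col25a1 at -0.10 ± 0.37. The network-forming type VIII chains were at 0.10 ± 0.08 for Col8a1 and -0.26 ± 0.24 for Col8a2 (adjusted p = 0.715). Col8a2 levels were 13.73 and 13.85 in Tbx2-GOF and 13.82 and 14.28 in control, so the groups overlapped. Its ratio was -0.09 on array 1 and -0.43 on array 2, and a second probe gave -0.23 and 0.06. Of the 41 chains, 5 were too dim to test, Col4a3, Col10a1, Col13a1, Col19a1 and Col28a1. None of the 5 was well above background on both arrays in either group.

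The machinery that makes, joins, senses and removes collagen was described from lists of named genes, with 0 genes called in any of the 4. Of 19 modifying enzymes and chaperones, all tested, the median was -0.04, with 7 means above 0. Plod2, which hydroxylates telopeptide lysines for stable cross-links, was farthest from 0 at -0.49 ± 0.27 (adjusted p = 0.256), and Fkbp14, a prolyl isomerase of the endoplasmic reticulum, was at -0.37 ± 0.27 (0.468). Of 11 tested genes for propeptide removal and cross-linking the median was -0.07. Adamts2, the protease that removes the amino-terminal propeptide of fibrillar collagens, was at -0.39 on array 1 and -1.12 on array 2 (mean -0.76 ± 0.52, adjusted p = 0.170). Tll1, a protease for the carboxy-terminal propeptide, was at 0.58 ± 0.08 (0.133), and Pcolce2, an enhancer of that cleavage, at -0.39 ± 0.21 (0.378).

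Collagen receptors had a median of 0.09 over 8 tested genes. Adgrg1, the adhesion receptor that binds type III collagen, was at 0.55 ± 0.08 (adjusted p = 0.149), and Itga11, an integrin subunit for fibrillar collagen, at 0.45 ± 0.18 (0.264). Of 9 tested genes for breakdown the median was -0.01. Mmp13, a collagenase, was at 0.51 ± 0.035 (0.182), and Timp3, a matrix-bound inhibitor of such enzymes, at -0.37 ± 0.21 (0.435).

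**Figure D4:**
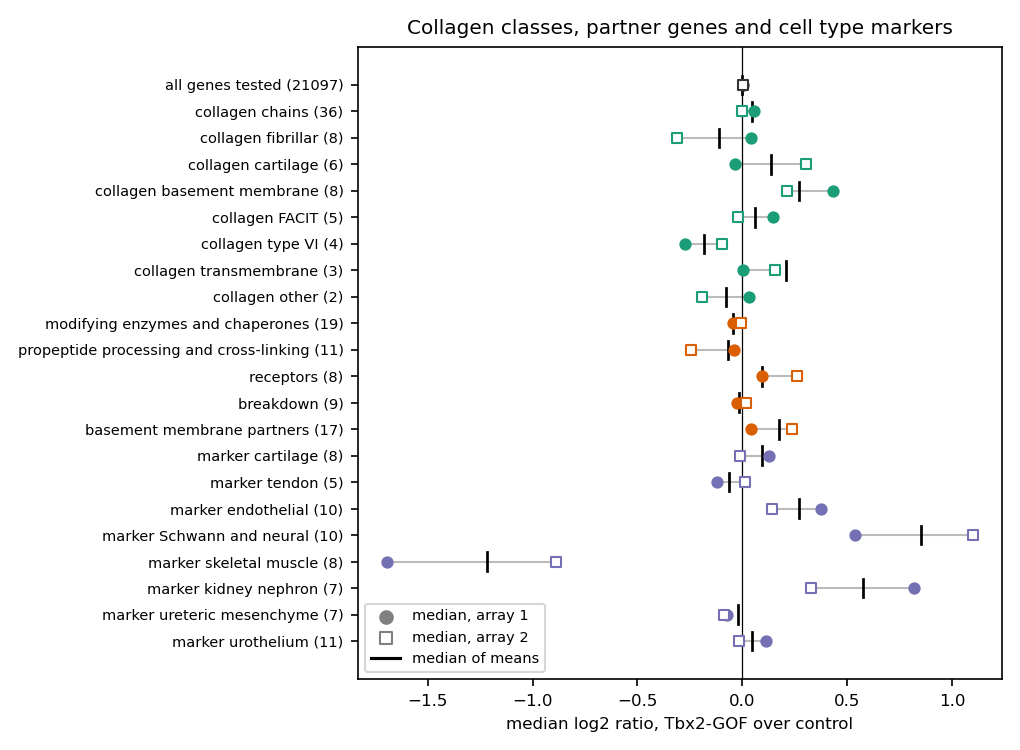
Median log2 ratio of Tbx2-GOF over control (horizontal axis) for all genes, the collagen classes (green), genes that act on or with collagens (orange) and cell type markers (purple), with the number tested in parentheses; filled circles are array 1, open squares array 2 and black ticks the median of the mean ratios. The basement membrane chains and their partners lie above 0 on both arrays, as do endothelial, neural and nephron markers, and skeletal muscle markers lie farthest below.

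The agreement of the arrays was also described over the family. Over the 36 chains the ratios of arrays 1 and 2 had Pearson's r of 0.67 and Spearman's rho of 0.57, and 23 (63.9%) had the same sign. Over all 21097 genes r was 0.31 and rho 0.13, and 51.2% had the same sign. These are descriptions across genes, which share the extracts, arrays and dyes and are not independent replicates. The median SD between the arrays was 0.18 for chains and 0.14 for all genes.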

How the data were processed

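Total RNA of ureters was amplified, labelled and hybridised to 2 two-colour Agilent arrays, per the labels' protocols. Per the submitters' processing notes the software was Agilent Feature Extraction 10.7.3.1. Mean spot signals and local backgrounds deposited by the authors are intensity values without normalization, and the processed signals are intensity values after background subtraction and dye normalization, per the file headers. Per the file headers, the deposited log ratio is a log10 value, red divided by green. The deposited value table holds a signed fold ratio. Its scale, centring and direction are not given in the sources used here. It was compared with the log ratio, turned to Tbx2-GOF over control, among probes well above background in both extracts of both arrays. Of these probes 99.6% matched on each array (within 0.01, log10). The median of all its values was 1 on each array.

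Here limma 3.58.1 in R 4.3.3 was used: normexp (offset 50), loess within arrays (span 0.3, control and flagged spots at weight 0), no scaling between arrays, ratios turned by the labelled dyes. Averaging the swapped arrays removes a dye effect common to them. Spots of 1 probe were averaged. A probe was kept where 1 group was flagged well above background in both scans; the brightest kept probe stood for a gene. Symbols were updated through RefSeq (GRCm38.p6), which matched 26412 probes (67%). The test was lmFit and eBayes, two-sided, with Benjamini-Hochberg adjustment over all genes at 0.05 (1 residual and 6.36 prior degrees of freedom). The number of arrays limits precision. Chains named in full are the 4 highest and 4 lowest with 1 sign on both arrays, chains of shared trimers and gene pairs, Col2a1, Col3a1, Col15a1, Col18a1 and chains whose probes disagree; of other lists, up to 3 genes farthest from 0 with 1 sign. Members and lists were chosen with earlier results of these data known. Median spot signals were 348 (green) and 452 (red) on array 1 and 382 and 449 on array 2. Alternatives were other background corrections, normalizations, filters, probe rules and models, the value table, and each array alone.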

Additional observations from a re-analysis of the deposited data

How the results depend on the processing

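Over 11 alternative settings, 228 of 242 values of 22 named chains kept their direction and their side of the threshold. Part of this agreement is built in. With no filter, the strict filter, the trended, robust variance and the separate-channel fit, ratios equalled the main ones and only p-values moved. The mean of probes can change only chains with more than 1 kept probe, and the value table nearly repeats the processed signals. Many chains were also far from the threshold. The count of chains higher past the test became 1, Col4a1, with scaling between arrays, no filter on dim probes, the mean of all kept probes, and a trended, robust variance. The count lower became 1, Col24a1, with no background correction, scaling, no filter, the strict filter and the mean of probes. With processed signals, median centring and the value table, 0 genes of the whole array were called by limma, and the separate-channel fit called 18 higher and 5 lower, none of them a collagen chain; scaling called 197 and 116, no filter 167 and 109, and the mean of probes 124 and 87. Ratios that changed sign were Col14a1 at 0.0192 and Col25a1 at 0.0334 with the mean of probes, and Col1a2 at 0.0167 with processed signals and with the value table and at 0.0021 with scaling. Without the filter the median of all chains was -0.005 and that of transmembrane chains 0.0523. The type VI median was -0.31 with processed signals and with the value table. Without replicate 1 or 2 the medians ranged from 3e-04 to 0.0544 for all chains, 0.21 to 0.43 for basement membrane, 0.0021 to 0.16 for transmembrane and -0.27 to -0.10 for type VI chains. They changed sign for fibrillar (-0.31 to 0.04), cartilage (-0.03 to 0.30), FACIT (-0.02 to 0.15) and type VIII chains (-0.19 to 0.03). The cause of these shifts was not tested. The ratios of the main analysis are already paired within arrays, and the separate-channel fit models each channel with an estimated correlation within spots. Chains near background, such as Col6a4 and Col4a4, are limited by their signal.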
